A study of Mus musculus with 3 samples.

Results

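AGNHW-treated mouse brain was compared with vehicle brain across all genes, as 1 library against 1. These are 2 of the 3 libraries of the study, chosen by their titles, and the sham library is given beside them for its level. All 3 came from total RNA of brains of adult wild-type C57BL/6 mice. Vehicle mice had middle cerebral artery occlusion, a stroke model that blocks the artery feeding the side of the forebrain. AGNHW stands for Angong Niuhuang Wan, a Chinese patent medicine used in stroke, which the AGNHW mice received at 3 mg per g per day. The labels list sham and vehicle as untreated. The labels do not say whether the AGNHW mice were occluded, and the sources used here give neither the brain region, the hemisphere and the time after occlusion nor how many mice were pooled. If the AGNHW mice were occluded, the comparison addresses what the medicine adds to the model. With 1 library per group there is no spread between animals and no test, so every difference is one between libraries, and each interval is a 95% counting interval.

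The libraries held 15718594 counts for vehicle, 18184691 for AGNHW and 18286151 for sham. Levels are in CPM, counts scaled to a common library total, after adjustment by the trimmed mean of M-values (TMM) over the 3 libraries. Where 3 values follow a gene, they are sham, vehicle and AGNHW in that order. The labelled tissue was checked against 10 brain markers. Snap25, a protein of the synaptic release machinery, stood at 1843 CPM in sham, 1558 in vehicle and 1652 in AGNHW. Of the other markers, Aqp4, the water channel of astrocyte end-feet, passed the rule of size described next, at 1.77-fold higher in AGNHW (1.53 to 2.05).

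A gene was called higher or lower when its ratio of AGNHW to vehicle was at least 1.5 either way, its mean over the 3 libraries was at least 1 CPM and its counting interval excluded 1. Of 15558 genes compared, 624 (4.01%) were higher and 398 (2.56%) lower in AGNHW, together 6.57%. These shares are the background for every count of list members below. The share called varied with level: at 1 to 3 CPM 8.11% were higher and 7.59% lower, and at 3 to 10 CPM 9.60% and 4.57%. At 10 to 30 CPM it was 2.54% and 1.32%, and from 100 CPM 0.138% and 0.321%. Lists of low genes can therefore hold more calls, and lists of abundant genes fewer, than the shares over all genes. Higher genes were 61.1% of all calls with TMM scaling and 72.3% with plain CPM. The median log2 ratio was 0.00, and the central 90% of genes lay between -0.47 and 0.56. At a limit of 2-fold, 175 genes were higher and 116 lower. Genes with a predicted or clone name made up 97 of the higher and 105 of the lower calls. Abundant genes moved little between the libraries: of 2179 genes at 100 CPM or more, 3 were higher and 7 lower. They were Egr1, Rapgef4 and mt-Atp8 on the higher side, and Gh, Prl, Pomc, Ndn, Mt1, Mpnd and mt-Atp6 on the lower side. Gh, Prl and Pomc reached a mean of 100 CPM only through vehicle, and stood at no more than 2.98 CPM in sham and AGNHW.

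**Figure D1:**
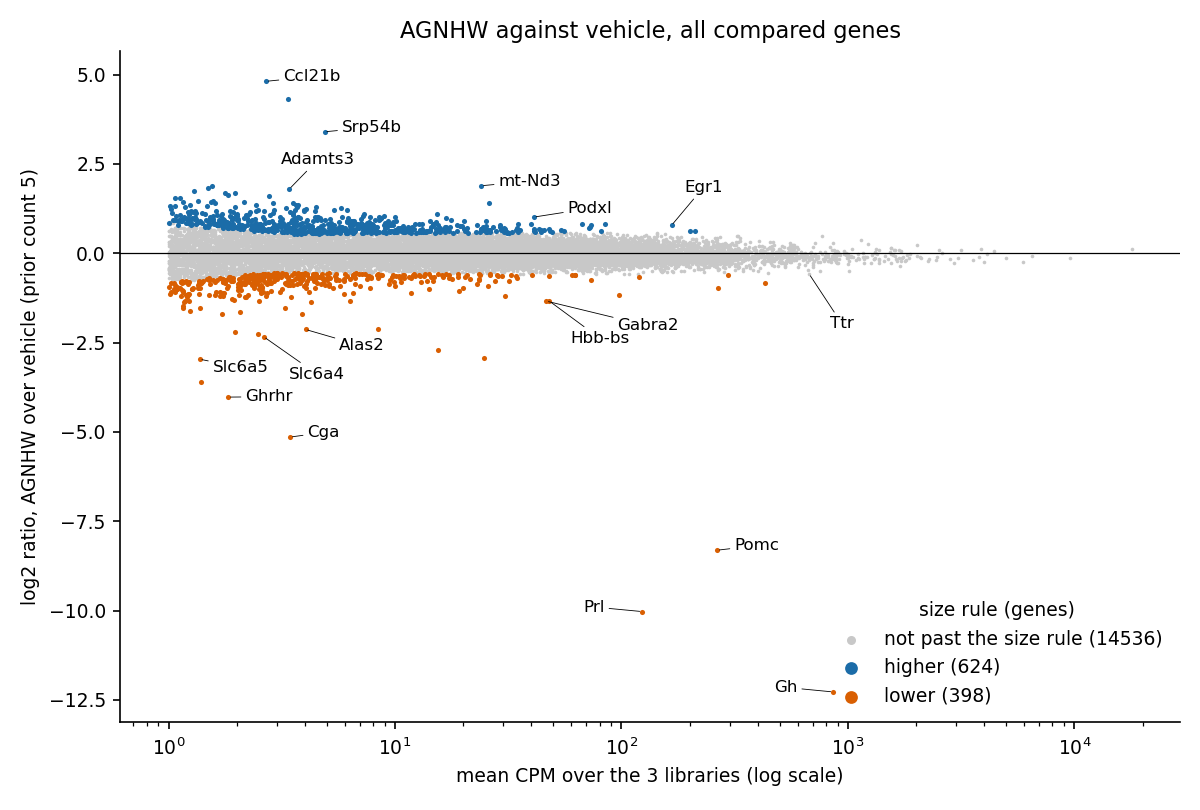
Log2 ratio of AGNHW to vehicle (vertical axis, with a prior count of 5) against mean CPM over the 3 libraries (horizontal axis, log scale) for the 15558 compared genes, 1 point a gene. The 624 higher genes are blue and the 398 lower genes orange, and Gh, Prl, Pomc and Cga lie far below the rest.

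The ratios also followed transcript length. Among 10 bins of genes by the length of the longest annotated transcript, the median log2 ratio went from -0.21 in the shortest bin (up to 1248 bases) to 0.19 in the longest (from 6786 bases). Lower calls numbered 128 in the shortest bin and 9 in the longest, and higher calls 42 and 86. A smooth trend on length and GC content took up 27.0% of the variance of the log2 ratio over 9941 genes of at least 10 CPM. After that trend was subtracted, 525 genes were higher (3.45%) and 230 lower (1.51%) of 15234 with a known length. Of these, 383 higher and 197 lower genes were also called before correction. The part of RNA quality or library preparation in this slope was not tested, so the corrected call is given below for list members whose call it changed. Of the abundant genes named above, Rapgef4, Mt1 and Mpnd did not pass after correction.

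**Figure D2:**
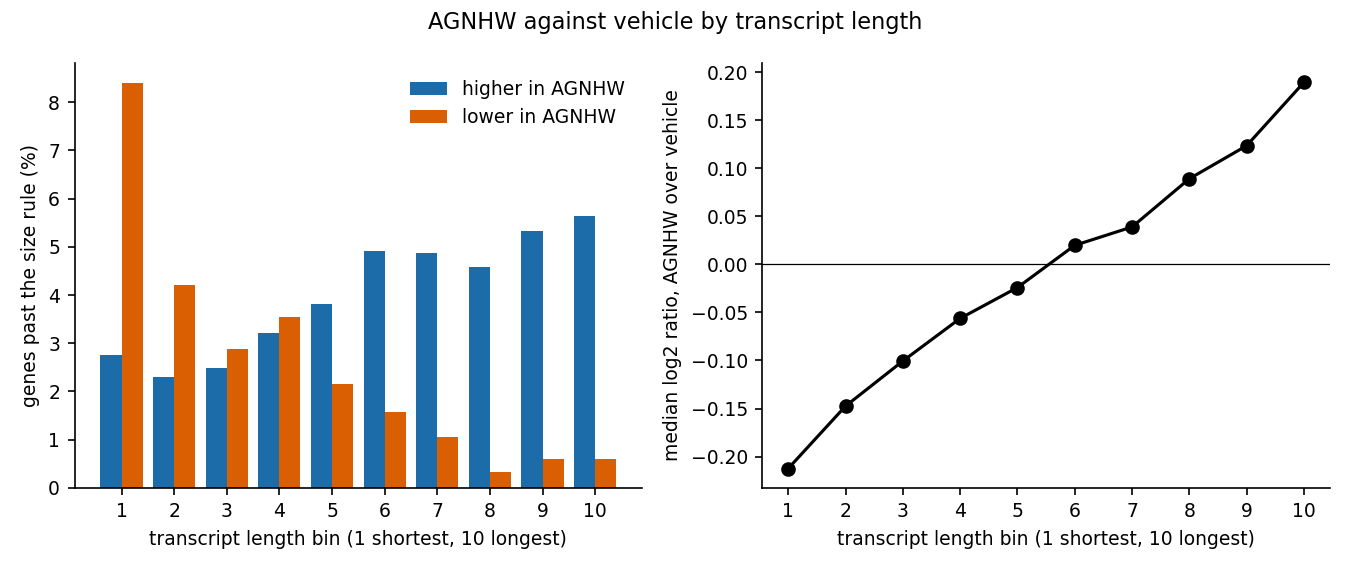
Genes in 10 bins of transcript length from shortest (1) to longest (10). Left, the percentage of genes in each bin called higher (blue) or lower (orange) in AGNHW, and right, the median log2 ratio of AGNHW to vehicle, which runs from -0.21 to 0.19.

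The deepest differences were in hormones of the anterior pituitary, a gland that hangs below the hypothalamus and is not part of the brain proper. Its cell types each secrete a hormone: somatotrophs make growth hormone (Gh), lactotrophs prolactin (Prl) and corticotrophs pro-opiomelanocortin (Pomc), which melanotrophs of the intermediate lobe also make. Cga is the alpha chain shared by the glycoprotein hormones. The lineages of somatotrophs and lactotrophs depend on the POU factor Pou1f1 (Pit-1), whose sites include the letters ATGNATA. Pou1f1 itself is not among the genes counted. The Prl promoter is shown because Prl had 5606 counts in vehicle and 1 in AGNHW. In the 250 bases before the Prl start in the RefSeq promoter table (chr13:27057320-27057569, plus strand, GRCm38.p6), ATGNATA on either strand occurs at 2 places, in capitals, whose first bases lie 148 and 47 bases before the start:
Prl: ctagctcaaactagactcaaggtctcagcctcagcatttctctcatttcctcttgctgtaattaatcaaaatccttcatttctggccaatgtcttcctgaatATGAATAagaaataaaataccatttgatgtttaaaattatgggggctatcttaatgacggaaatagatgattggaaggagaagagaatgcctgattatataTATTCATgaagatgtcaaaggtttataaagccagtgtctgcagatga
The same letters occur in 7.92% of the 32851 promoter windows of that length in the table, so a match is a description of the sequence and not of binding.

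Gh had 0 counts in sham, 39065 in vehicle and 4 in AGNHW, so that it stood at 2568 CPM in vehicle and 0.219 CPM in AGNHW. The vehicle level was 11727 times that of AGNHW (4580 to 43041). Prl had 0, 5606 and 1 counts in the same order, a ratio of AGNHW to vehicle of 0.000149 (3.76e-06 to 0.000828). Pomc, which a group of hypothalamic neurons also makes, had 56, 12008 and 40 counts and was 360.5-fold lower in AGNHW (265 to 505). Gh and Prl lay near the floor of 3 counts in sham and AGNHW, Pomc stood there at 2.98 and 2.19 CPM, and vehicle was high for all 3.

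Cga had 2, 156 and 0 counts in sham, vehicle and AGNHW, at least 62.4-fold lower in AGNHW against a floor of 3 counts. Ghrhr, the receptor through which somatotrophs sense the hypothalamus, had 0, 83 and 1 counts, a ratio of 0.010 (0.000251 to 0.0575). Among lineage factors, Lhx3 had 1, 33 and 15 counts and was 2.64-fold lower (1.4 to 5.23). AGNHW held 15 Lhx3 counts against 1 in sham, whereas Gh and Prl lay near the floor of 3 counts in these libraries. Tshb, the thyrotropin beta chain, had 17, 28 and 17 counts and was 1.98-fold lower (1.05 to 3.85). Below the limit of 1 CPM, Pitx1 had 2, 39 and 0 counts and the corticotroph factor Tbx19 0, 25 and 0. Epcam, an epithelial adhesion protein, had 2, 61 and 1 counts, a ratio of 0.0137 (0.000340 to 0.0790).

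Lower calls numbered 9 among 19 measured pituitary genes and higher calls 0, and the median log2 ratio was -0.53 (8 lower and -0.50 after correction). Gh, Prl, Cga and Ghrhr stood at no more than 0.219 CPM in sham and AGNHW, so they passed the filter of 1 CPM only through vehicle. The same holds for Lhx3 and Tshb, and for Epcam outside the list, which were each under 1 CPM in sham and AGNHW. Their lower calls follow from that filter, and the count for the list is a description only. All 5 measured hormone genes were lower, whereas 7 of 8 genes of hormone processing and secretory granules did not pass. The ratios of these 8 were all below 1, with a median log2 ratio of -0.28. Their summed level was 1430 CPM in sham, 1782 in vehicle and 1476 in AGNHW, so vehicle was again the highest library. Chgb, a granule protein that neurons also make, stood at 447, 494 and 455 CPM. Pcsk1, a convertase that cleaves Pomc, had a ratio of 0.986 (0.807 to 1.21). The gene of these 8 that passed was Cartpt, a neuropeptide precursor, at 14.6, 30.2 and 15.3 CPM and 1.98-fold lower (1.70 to 2.31). Over the whole list the summed level was 1474 CPM in sham, 5569 in vehicle and 1521 in AGNHW. Together Gh, Prl, Pomc and Cga made up 0.362% of vehicle counts, against 58 counts in sham and 45 in AGNHW. In bulk RNA, fewer cells of a type and less RNA per cell cannot be told apart, and whether pituitary tissue was included with the vehicle brain was not tested.

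**Figure D3:**
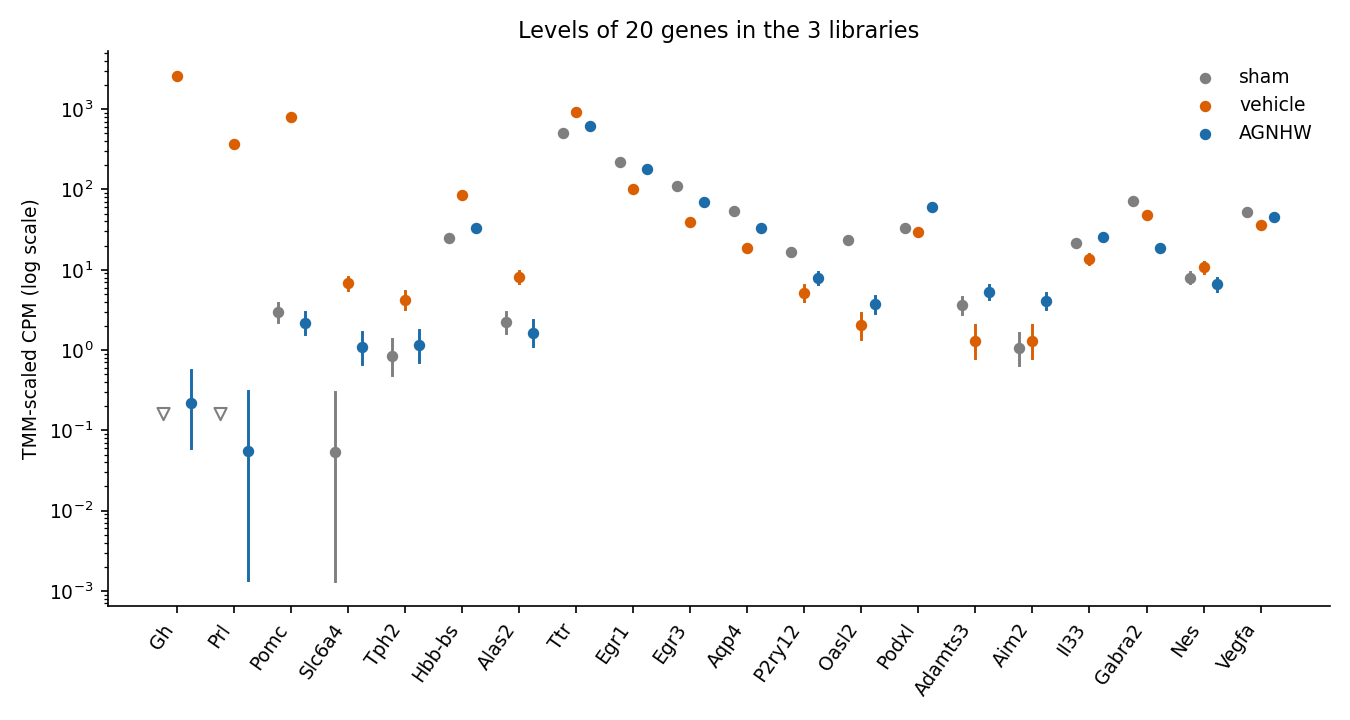
TMM-scaled CPM (log axis) of 20 genes in the sham (grey), vehicle (orange) and AGNHW (blue) libraries, with 95% exact Poisson counting intervals as bars, and open triangles at the floor of 3 counts for libraries at 0. Vehicle is the highest library for Gh, Prl, Pomc, Slc6a4, Tph2, Hbb-bs and Alas2, whereas AGNHW is the highest for Podxl and Aim2 and the lowest for Gabra2.

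Of 5 serotonin neuron genes 2 were lower in AGNHW and 0 higher, and of 4 genes of glycine and hindbrain neurons 1 was lower and 1 higher, the same after correction. Serotonin neurons sit in the raphe of the brainstem, where Tph2 makes the transmitter and Slc6a4 takes it back up. Slc6a4 had 1, 103 and 20 counts in sham, vehicle and AGNHW and was 6.18-fold lower (3.8 to 10.5). Tph2 had 16, 64 and 21 counts and was 3.66-fold lower (2.21 to 6.31). Slc6a5, the glycine transporter of inhibitory neurons of the hindbrain and spinal cord, had 3, 57 and 4 counts and was 17.1-fold lower (6.33 to 64.9). Vehicle was the highest library for all of these, and AGNHW held more Slc6a4 than sham. Slc6a5, at 0.159 CPM in sham and 0.219 in AGNHW, passed the filter of 1 CPM only through vehicle. Slc6a4, at 0.0531 CPM in sham, 6.77 in vehicle and 1.10 in AGNHW, would not have reached a mean of 1 CPM without vehicle either. The lower calls of both follow from that filter, and the counts for these groups are a description only. Chat, the enzyme that makes acetylcholine, was the higher gene, with 50, 29 and 69 counts and 1.98-fold (1.27 to 3.17). The glycine receptor subunit Glra1 did not pass, with 26, 16 and 22 counts and a ratio of 1.15 (0.574 to 2.33). None of the 4 measured catecholamine genes passed: Th, the rate-limiting enzyme of catecholamine synthesis, stood at 10.2, 15.8 and 18.3 CPM, a ratio of 1.16 (0.979 to 1.37). Below the limit of 1 CPM, Pnmt of the same group had 9, 13 and 3 counts and was 5.20-fold lower (1.43 to 28.5). Dbh, also below it, had 7, 13 and 15 counts and a ratio of 0.961 (0.427 to 2.19). The brainstem and monoamine list held 3 lower and 1 higher of 13, a median of -0.09 and a summed level of 81.0 CPM in sham, 131 in vehicle and 112 in AGNHW.

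The hypothalamus links the brain to the pituitary and makes releasing peptides. Lower calls took in 4 of 21 hypothalamic genes and higher calls 0, and the median of -0.31 became 0.09 after the length correction. Nr5a1, a factor of the ventromedial nucleus and of pituitary gonadotrophs, had 15, 29 and 14 counts and was 2.49-fold lower (1.27 to 5.09). Nr5a1 stood at 0.797 CPM in sham and 0.767 in AGNHW, so it passed the filter of 1 CPM only through vehicle. Oxt, the oxytocin precursor, stood at 9.25, 21.0 and 13.2 CPM and was 1.59-fold lower (1.34 to 1.89), and Pmch, the precursor of melanin-concentrating hormone, 1.54-fold lower (1.21 to 1.97). Both are short transcripts and neither passed after correction, and the histamine enzyme Hdc was called lower after correction only. Avp, the vasopressin precursor, stood at 32.1, 41.8 and 29.7 CPM, and its ratio of 0.711 (0.633 to 0.799) did not reach the limit. The list summed to 417 CPM in sham, 528 in vehicle and 444 in AGNHW.

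Choroid plexus, the epithelium that secretes cerebrospinal fluid, differed less. Ttr, its thyroxine carrier, stood at 499, 914 and 610.4 CPM, and its ratio of 0.668 (0.651 to 0.685) just missed the limit. The folate receptor Folr1 was the 1 lower gene of 17, at 1.68-fold (1.29 to 2.2), and did not pass after correction, when the coagulation factor F5 was the 1 lower gene. Kl, the ageing-related Klotho protein, had 260, 173 and 209 counts and a ratio of 1.01 (0.819 to 1.24). Choroid genes therefore did not shift as a block, and their median was -0.15 both before and after correction. Among 15 genes of the ciliary axoneme, which beats in ependymal cells lining the ventricles, Tekt1 (1.69-fold, 1.10 to 2.62) and Fam183b (1.59-fold, 1.16 to 2.2) were lower, and neither passed after correction.

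Haemoglobin transcripts, which come from young red cells in blood, were lower throughout. Hbb-bs stood at 25.2, 85.5 and 33.6 CPM in sham, vehicle and AGNHW and was 2.55-fold lower (2.31 to 2.81). Alas2, the erythroid enzyme that starts haem production, stood at 2.23, 8.22 and 1.64 CPM and was 5.0-fold lower (3.34 to 7.72). All 4 haemoglobin chains and Alas2 made 5 lower genes of 8, with a median of -1.06 (-0.68 and again 5 after correction). Summed over near-identical copies, alpha chains were 2.42-fold lower (2.16 to 2.72) and beta chains 2.46-fold lower (2.25 to 2.69). Bpgm, an enzyme of red cells that neural tissue also expresses, had a ratio of 0.894 (0.831 to 0.962). The share of blood left in each brain was not tested.

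Further genes at the lower end belonged to no single tissue. Cyp2f2, a cytochrome P450 of airway and olfactory epithelium, had 12, 89 and 18 counts and was 5.94-fold lower (3.55 to 10.5). Gnb3, a G protein subunit known from photoreceptors, had 10, 70 and 14 counts and was 6.00-fold lower (3.35 to 11.5). Cdh23, a cadherin of hair cell bundles, had 47, 85 and 32 counts and was 3.19-fold lower (2.10 to 4.95). For these genes too vehicle was the highest of the libraries, although for Cdh23 sham lay above AGNHW. Cyp2f2 (0.638 CPM in sham and 0.986 in AGNHW) and Gnb3 (0.531 and 0.767) passed the filter of 1 CPM only through vehicle. Their lower calls and the rank of vehicle follow from that filter.

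Among 19 meningeal fibroblast genes 4 were higher and 0 lower, 16 ratios lay above 1 and 3 below, and the median was 0.20 (3 higher and 0.28 after correction). The forkhead factor Foxc2 had 53, 26 and 75 counts and was 2.40-fold higher in AGNHW (1.52 to 3.91). Its relative Foxc1, needed for meninges to form, had 142, 66 and 127 counts and was 1.60-fold higher (1.18 to 2.19). The sulphate transporter Slc13a4 stood at 16.5, 11.6 and 17.6 CPM and was 1.51-fold higher (1.25 to 1.83), and Tbx18, a factor also found in mural cells, 2.02-fold higher (1.06 to 4.08, lost after correction). The 3 ratios below 1 were those of Mgp, a matrix protein (0.779, 0.684 to 0.886), Islr (0.954, 0.833 to 1.09) and Ptgds, a prostaglandin synthase that oligodendrocytes also make (0.823, 0.810 to 0.837). Ptgds stood at 958, 2025 and 1667 CPM and made up most of the list's summed level of 1193 CPM in sham, 2291 in vehicle and 1957 in AGNHW. The part of attached meninges in these values was not tested.

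**Figure D4:**
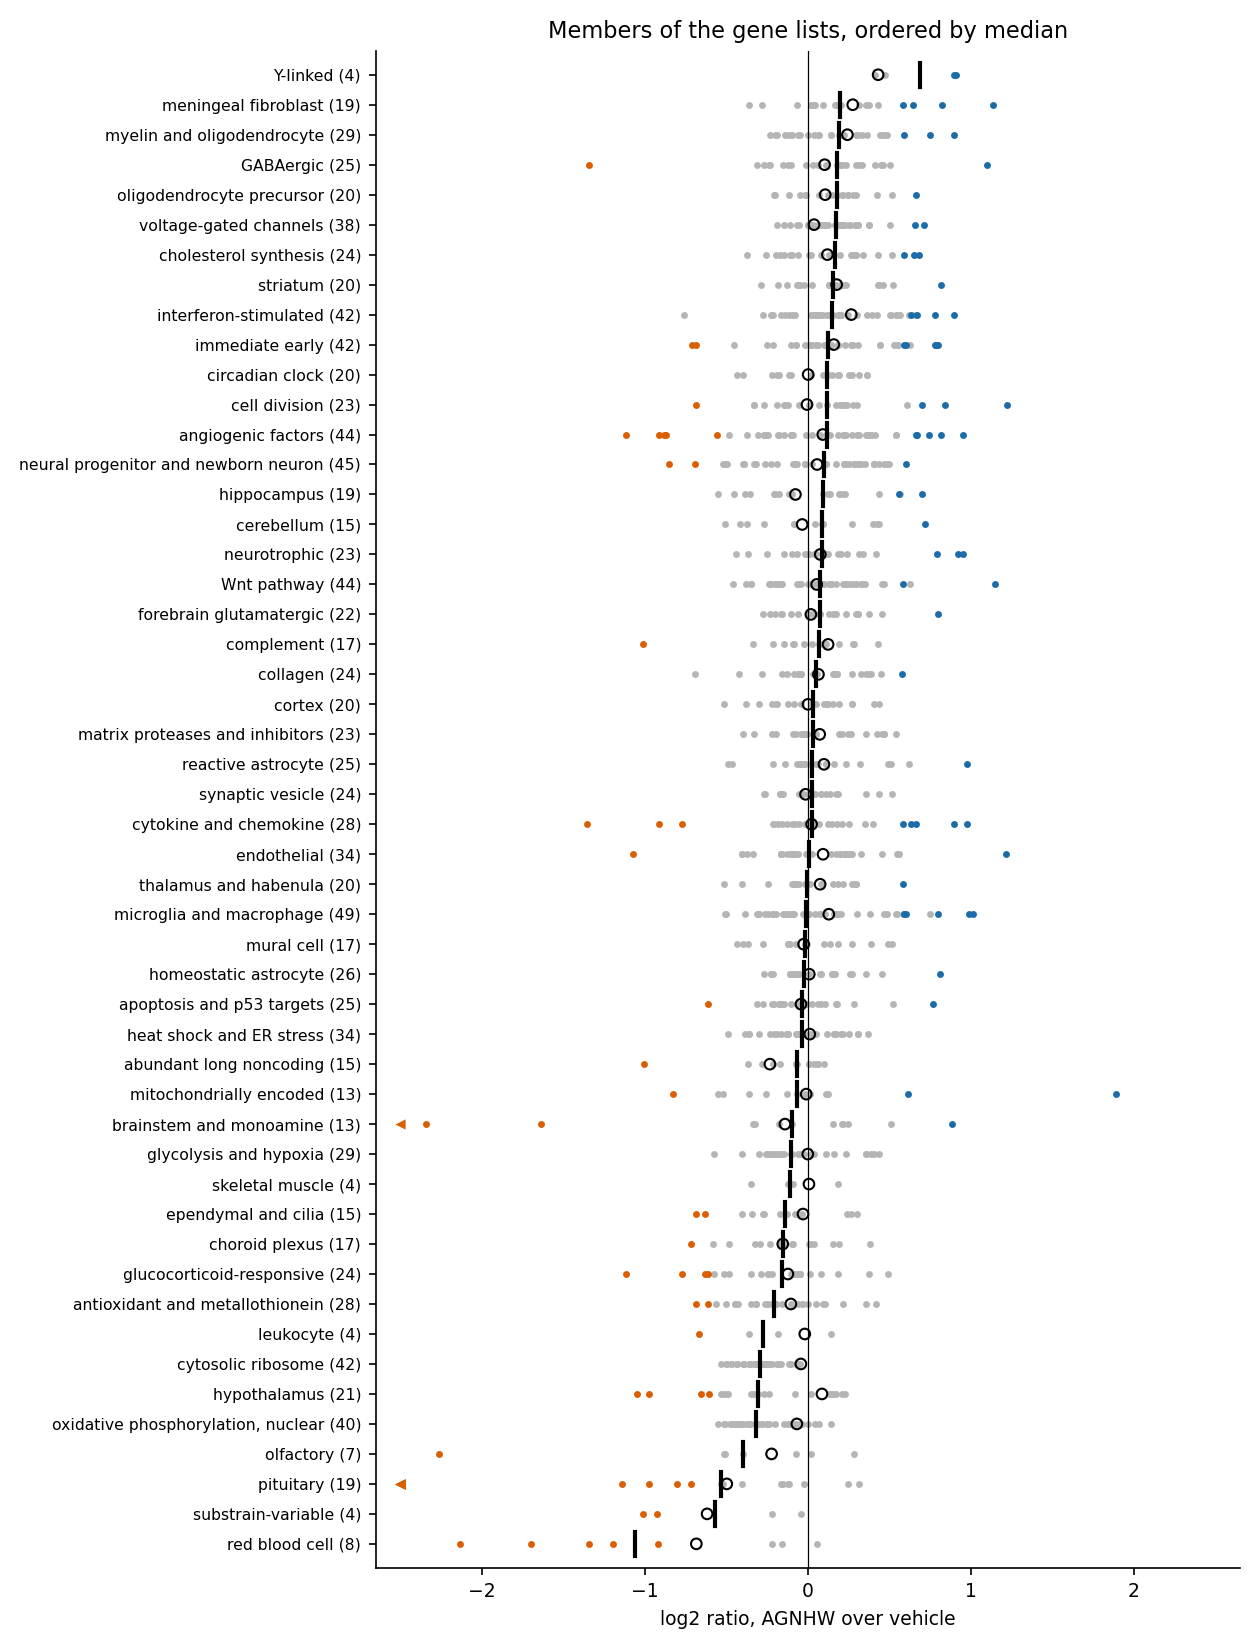
Log2 ratio of AGNHW to vehicle for the measured members of 50 gene lists (number in brackets), 1 point a gene, with called genes in blue (higher) or orange (lower) and triangles for values beyond the axis. Thick bars mark the median and open circles the median after the length and GC correction, from red blood cell (-1.06) to Y-linked (0.69).

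Immediate early genes are switched on within minutes when neurons fire or cells meet a growth factor. The serum response factor sits at CArG boxes in their promoters, and many of their products are short-lived transcription factors. The Egr2 promoter is shown as an example of these letters. In the 250 bases before one of its start sites in the RefSeq table (chr10:67537619-67537868, plus strand, GRCm38.p6), 1 CArG box in capitals begins 72 bases before the start:
Egr2: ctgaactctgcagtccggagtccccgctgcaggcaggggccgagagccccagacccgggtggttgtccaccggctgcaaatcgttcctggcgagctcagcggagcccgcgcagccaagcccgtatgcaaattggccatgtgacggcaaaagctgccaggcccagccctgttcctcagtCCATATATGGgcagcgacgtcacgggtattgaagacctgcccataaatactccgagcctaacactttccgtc
The box was found in 4 of 5 windows listed for Egr2 and in 1.47% of all 32851 windows, with both strands searched. No binding was measured here.

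The Egr factors led the immediate early genes. Egr1 stood at 219, 103 and 177 CPM and Egr3 at 110.2, 39.8 and 69.4 CPM, with ratios of 1.73 (1.62 to 1.83) and 1.75 (1.58 to 1.93). Egr2, known for myelination in Schwann cells, had 80, 18 and 41 counts and was 1.90-fold higher (1.07 to 3.51). In each case AGNHW lay between vehicle and sham. Fos had 280, 100 and 147 counts and a ratio of 1.22 (0.943 to 1.59), and Npas4, which responds to calcium entry in neurons, had a ratio of 1.09 (0.920 to 1.30). Arc, the activity-regulated synaptic protein, stood at 187, 113 and 166 CPM with a ratio of 1.47 (1.38 to 1.56), just short of the limit and called higher after correction.

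Calls took in 7 of 42 immediate early genes, 5 higher and 2 lower, around a median of 0.12. Besides the Egr genes, the TGF-beta-inducible repressor Klf10 was 1.54-fold higher (1.21 to 1.97, lost after correction) and the ERK phosphatase Dusp6, at 42.5, 20.4 and 30.9 CPM, 1.51-fold higher (1.32 to 1.74). Gadd45g, a stress-responsive regulator of growth arrest, went the other way at 19.4, 31.8 and 19.3 CPM and 1.64-fold lower (1.43 to 1.89). The kinase Pim1 was 1.65-fold lower (1.21 to 2.25). Neither of these lower calls held after correction, which left 5 higher genes and none lower.

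Microglia are the resident macrophages of the brain and carry a set of surface and transcription factor genes while at rest. Among 24 such homeostatic genes 5 were higher in AGNHW and none lower. Sall1, the factor that maintains microglial identity and that other neural cells also express, stood at 22.9 CPM in sham, 9.14 in vehicle and 18.5 in AGNHW and was 2.02-fold higher (1.65 to 2.48). The purinergic receptor P2ry12 stood at 16.7, 5.13 and 7.94 CPM and was 1.55-fold higher (1.17 to 2.07, lost after correction), and the Fc receptor-like gene Fcrls 1.53-fold higher (1.19 to 1.96). Slc2a5, a fructose carrier, was 1.90-fold higher (1.12 to 3.35) on 21 counts in vehicle, and Ptprc (CD45) 2.60-fold higher (1.14 to 6.68, lost after correction) on 8.

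The level of these genes in AGNHW remained under that in sham. Cx3cr1, the fractalkine receptor, at 48.3, 19.99 and 29.3 CPM, had a ratio of 1.47 (1.27 to 1.69) and did not pass. None of 19 phagocytic and lysosomal genes and none of 6 border macrophage genes was called in either direction. After correction Lgals3 (galectin-3), with 24, 14 and 32 counts and a ratio before it of 1.90 (0.987 to 3.86), was called higher. Aif1 (Iba1), the common stain for microglia, had 73, 57 and 68 counts and a ratio of 0.994 (0.688 to 1.44). The whole list of 49 had a median of -0.01. Gbp5 and Aim2, both linked to inflammasomes, were among the highest genes in AGNHW. Gbp5 had 90, 11 and 51 counts and was 3.86-fold higher (1.99 to 8.22). Aim2, a sensor of cytosolic DNA, had 20, 20 and 75 counts and was 3.12-fold higher (1.89 to 5.4), so here sham and vehicle lay together and AGNHW stood alone.

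Interferon-stimulated genes block viral replication and are induced as a group by type I interferon. The list summed to 577 CPM in sham, 357 in vehicle and 402 in AGNHW. Oasl2 stood at 23.5, 2.04 and 3.72 CPM in sham, vehicle and AGNHW and was 1.83-fold higher in AGNHW than in vehicle (1.18 to 2.89). Ifit1 had 165, 10 and 27 counts and was 2.25-fold higher (1.05 to 5.21, lost after correction). Irgm1, an interferon-induced GTPase, was 1.65-fold higher (1.14 to 2.40) and Ifit2 1.59-fold higher (1.15 to 2.23, lost after correction). The list of 42 held 4 higher and 0 lower genes and a median of 0.15. After correction 3 were higher, Oasl2, Irgm1 and Rtp4, whose ratio before it was 1.54 (0.947 to 2.56). Members on both sides of 1 remained: Irf7, the master regulator, had 337, 31 and 40 counts and a ratio of 1.07 (0.656 to 1.78), and Rsad2, an antiviral enzyme, 55, 13 and 7 counts and a ratio of 0.448 (0.151 to 1.21).

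Cytokine and chemokine genes differed in both directions, with 5 of 28 higher and 3 lower. Il33, an alarmin stored in oligodendrocytes and astrocytes, stood at 21.3, 13.5 and 25.5 CPM and was 1.88-fold higher (1.60 to 2.23). The oncostatin M receptor Osmr was 2.08-fold higher (1.42 to 3.12) on 71, 38 and 95 counts, and the chemokine Cxcl12 1.59-fold higher (1.44 to 1.75). On the lower side, the leukocyte adhesion molecule Icam1 had 38, 120 and 53 counts and was 2.72-fold lower (1.95 to 3.83). Nfkbia, the inhibitor that NF-kB induces, stood at 23.3, 45.6 and 26.6 CPM and was 1.71-fold lower (1.52 to 1.93, lost after correction).

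Of the TGF-beta genes in the same list, the ligand Tgfb1 stood at 9.94, 13.1 and 6.84 CPM and was 1.92-fold lower (1.53 to 2.42). The receptors were higher, Tgfbr2 by 1.56-fold (1.31 to 1.86) and Tgfbr1 by 1.53-fold (1.18 to 1.98), and neither receptor passed after correction. Smad6, an inhibitor of the related BMP pathway that was named after its value was seen, had 59, 24 and 74 counts and was 2.57-fold higher (1.60 to 4.26). Lcn2, an acute-phase protein of reactive astrocytes and neutrophils, stood at 0.478, 19.001 and 18.2 CPM with a ratio of 0.957 (0.815 to 1.12). The neutrophil gene S100a9 had 3, 47 and 49 counts and a ratio of 0.868 (0.570 to 1.32). For both of these genes AGNHW thus stood near vehicle and above sham. Other genes of reactive cells lay the other way against sham. Gfap, an astrocyte filament, stood at 430, 238 and 248 CPM, and the reactive astrocyte list summed to 713, 639 and 645 CPM.

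Growth of new vessels uses VEGF and FGF ligands, endothelial receptors, and angiopoietin and Notch signals that steady the sprout. Calls among 44 angiogenic genes were even, 5 each way, around a median of 0.12. Of the ligands, Fgf2 had 62, 31 and 77 counts and was 2.07-fold higher (1.35 to 3.25), and the lymphatic growth factor Vegfc had 53, 25 and 57 counts and was 1.90-fold higher (1.17 to 3.17). Apln, made by sprouting tip cells, stood at 15.3, 11.6 and 18.6 CPM and was 1.60-fold higher (1.33 to 1.94). Among receptors, the angiopoietin receptor Tek stood at 9.19, 5.85 and 10.02 CPM and was 1.71-fold higher (1.32 to 2.23). AGNHW was the highest of the 3 libraries for all 4 of these. Adm (adrenomedullin), with 40, 48 and 77 counts, was called higher after correction only (ratio before it 1.34, 0.920 to 1.96).

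The lower angiogenic genes were of mixed role. Angptl4, a lipase inhibitor induced by fasting, hypoxia and glucocorticoid, had 60, 171 and 92 counts and was 2.23-fold lower (1.72 to 2.91). Met, the receptor of hepatocyte growth factor, had 90, 59 and 36 counts and was 1.97-fold lower (1.28 to 3.07). Ramp2, the partner of the adrenomedullin receptor, stood at 17.1, 33.5 and 18.2 CPM and was 1.84-fold lower (1.60 to 2.12), although 31.1% of its transcript windows are unique to it. The Notch ligand Dll4 was 1.53-fold lower (1.01 to 2.32) on 56 and 44 counts and did not pass after correction. Vegfa stood at 52.6, 35.6 and 45.8 CPM and its receptor Kdr at 10.9, 6.18 and 7.78, and neither passed.

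Endothelial cells of the brain seal the blood-brain barrier with tight junctions. Ocln (occludin) was the 1 higher gene of 34, with 135, 39 and 116 counts, 2.48-fold higher (1.71 to 3.66). Other junction genes gave smaller ratios: Tjp1 (ZO-1) 1.47 (1.32 to 1.63) and Cldn5, the main claudin of brain endothelium, 1.21 (1.08 to 1.35). Pecam1 stood at 23.2, 28.1 and 25.7 CPM with a ratio of 0.915 (0.801 to 1.05). Ctla2a, a protease inhibitor, was the 1 lower gene, at 2.29-fold (1.47 to 3.63). The amino acid transporter Slc38a5, with 93, 45 and 76 counts, was called higher after correction only. Podxl, a surface sialomucin of the vessel lumen that was named after its value was seen, stood at 33.1, 29.8 and 60.5 CPM and was 2.03-fold higher (1.82 to 2.27). Thbd (thrombomodulin), chosen in the same way, had 188, 65 and 163 counts and was 2.09-fold higher (1.56 to 2.83). None of 17 mural cell genes was called. Kcnj8, a potassium channel of pericytes, stood at 3.29, 4.01 and 5.86 CPM and was called higher after correction only (ratio before it 1.46, 1.06 to 2.03).

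The adult brain makes neurons from stem cells in the wall of the lateral ventricle and in the dentate gyrus. Of 45 genes of progenitors and newborn neurons 1 was higher and 2 were lower, and none of 16 genes of the newborn neuron cytoskeleton passed. Thbs4, a thrombospondin secreted by ventricular astrocytes, stood at 7.60, 13.3 and 7.23 CPM and was 1.84-fold lower (1.47 to 2.31), beside Nes at 7.97, 10.8 and 6.57 CPM and 1.64-fold lower (1.29 to 2.09). Dlx6, a homeobox factor of interneuron precursors, was 1.54-fold higher (1.22 to 1.95). Sox2, with 36.2, 21.6 and 30.7 CPM, had a ratio of 1.42 (1.24 to 1.63) and was called higher after correction only. Dcx, the microtubule protein of migrating neuroblasts, had 497, 193 and 283 counts, a ratio of 1.22 (1.01 to 1.47) and a corrected log2 ratio of -0.02.

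Cell division genes gave 3 higher and 1 lower of 23, before and after correction. Of 11 mitotic genes 3 were higher, namely Bub1b (63, 17 and 55 counts), Ccna2 (33, 17 and 41) and Aurka (39, 32 and 66). Of 12 replication genes Mcm2, a subunit of the replicative helicase, was lower, with 80, 79 and 57 counts and 1.66-fold (1.17 to 2.38). Mki67, the proliferation marker, had 33, 15 and 20 counts and a ratio of 1.11 (0.540 to 2.33), and no difference within that interval was detectable at this depth. Among 23 neurotrophic genes 3 ligands were higher, Fgf2 as above, Cdnf (24, 15 and 39 counts, 2.17-fold, 1.17 to 4.23) and Ntf3 (37, 25 and 56 counts, 1.87-fold, 1.15 to 3.12), and no receptor passed. Bdnf had 298, 105 and 144 counts and a ratio of 1.14 (0.882 to 1.48).

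Astrocytes and oligodendrocytes contributed few calls. Aqp4 stood at 53.4, 18.5 and 32.8 CPM and was the 1 higher gene of 26 homeostatic astrocyte genes. Gfap, the filament that reactive astrocytes build up, stood at 429.7, 237.7 and 247.6 CPM with a ratio of 1.04 (0.997 to 1.09). Among 25 genes of reactive astrocytes Osmr was the 1 call, and after correction the elastic fibre protein Fbln5 was also called, as lower. Of 29 myelin and oligodendrocyte genes 3 were higher. They were Ermn, a cytoskeletal protein of mature oligodendrocytes (1.69-fold, 1.46 to 1.97), Opalin, a myelin membrane protein (1.51-fold, 1.30 to 1.75), and Il33. Neither Ermn nor Opalin passed after correction, when the myelin membrane protein Pllp (ratio before it 1.39, 1.11 to 1.76) was called higher.

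No gene was called among 20 cortical markers or 24 genes of synaptic vesicle release, before or after correction. GABA-A receptors are chloride channels, assembled from several subunits, that carry fast inhibition. The alpha 2 subunit Gabra2 stood at 72.8 CPM in sham, 48.3 in vehicle and 18.9 in AGNHW and was 2.55-fold lower (2.24 to 2.91), or -1.61 on the log2 scale after correction. It was the only called gene of its list below 1, while Gabrb2, the beta 2 subunit, had 592, 68 and 181 counts and was 2.22-fold higher (1.67 to 2.97). Gabra2 and Gabrb2 thus moved in opposite directions, and 99.3% of the Gabra2 transcript windows are unique to it.

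The called genes of the striatal, hippocampal, glutamatergic and potassium channel lists were higher in AGNHW. The striatal phosphodiesterase Pde10a stood at 109.8, 52.3 and 92.5 CPM and was 1.77-fold higher (1.62 to 1.92). The kainate receptor subunit Grik2 was 1.75-fold higher (1.51 to 2.04) and the potassium channel Kcnh7 1.59-fold higher (1.34 to 1.90), and both calls ended after correction. Kcna1, the axonal potassium channel Kv1.1, stood at 42.2, 23.1 and 38.2 CPM and was 1.65-fold higher (1.45 to 1.88). C1ql3 and Npy2r were the 2 higher genes of 19 hippocampal markers, at 1.52-fold (1.06 to 2.19) and 1.68-fold (1.20 to 2.39). Among genes of at least 100 CPM, Rapgef4 (Epac2), a cAMP sensor of neurons, stood at 264, 146 and 226 CPM and was 1.55-fold higher (1.47 to 1.63, lost after correction). In the other direction, Ndn (necdin), an imprinted gene of neurons and hypothalamus, stood at 266, 355 and 181 CPM and was 1.96-fold lower (1.87 to 2.04), a call that held after correction.

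Clustered protocadherins are cell surface proteins by which neurons tell their own branches from others. These families were picked after their values were seen. Of 4 measured alpha genes 3 were higher, of 19 beta genes 5 and of 21 gamma genes 3, with none lower in any cluster. After correction these were 2 alpha, 3 beta and 3 gamma genes. Pcdhac2 had 214, 73 and 178 counts and was 2.03-fold higher (1.54 to 2.70), Pcdhgb2 96, 36 and 87 counts and 2.01-fold (1.35 to 3.06), and Pcdhb11 48, 13 and 46 counts and 2.95-fold (1.57 to 5.95). Alpha and gamma genes share constant exons within their cluster, so their counts are uncertain. Among 341 zinc finger genes of the Zfp series, 29 (8.50%) were higher and 6 lower, and after correction 19 and 7.

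The lists of nuclear oxidative phosphorylation and cytosolic ribosomal genes had medians below 0 and no member past the limit before correction. In the wider symbol families, 1 of 91 Rpl and Rps genes was higher and 1 lower, and 1 of 41 Nduf genes was lower. None of 40 nuclear genes of oxidative phosphorylation was called, and their median of -0.32 became -0.07 after correction. Atp5l, a subunit of ATP synthase, at 68.1, 95.9 and 71.5 CPM and a ratio of 0.745 (0.691 to 0.803), was called lower after correction only. None of 42 cytosolic ribosomal genes was called either, and their median of -0.30 became -0.04. These are short transcripts, such as Rps29, a small ribosomal subunit protein of 461 bases, which stood at 107 CPM in sham, 201 in vehicle and 142 in AGNHW with a ratio of 0.706 (0.670 to 0.744) and a corrected log2 ratio of -0.10. The length slope shown above moves with both lists.

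Among 28 antioxidant and metallothionein genes 2 were lower and 0 higher. Metallothionein Mt1, which binds zinc and copper, stood at 192, 421 and 276 CPM and was 1.53-fold lower (1.47 to 1.58), and the plasma glutathione peroxidase Gpx3 1.61-fold lower (1.45 to 1.80). Neither passed after correction, which left no call in the list. Of 24 genes that glucocorticoid induces in brain 4 were lower, Angptl4, Nfkbia, Mt1 and Arrdc2 (1.55-fold, 1.42 to 1.70), and after correction Angptl4 and the kinase Pdk4. Fkbp5, a chaperone of the glucocorticoid receptor, stood at 54.7, 145 and 140.3 CPM with a ratio of 0.967 (0.913 to 1.02). Cdkn1a, the p53 target p21, stood at 20.5, 100.2 and 86.2 CPM with a ratio of 0.860 (0.801 to 0.924). Both thus lay nearer to vehicle than to sham. The genes Ucp2, a mitochondrial carrier, and Txnip, an inhibitor of thioredoxin, were named after their values were seen, and were 1.69-fold (1.57 to 1.83) and 1.74-fold (1.53 to 1.96) lower.

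Cholesterol genes were higher in 3 of 24 cases before correction and in none after it. Abca1, the exporter, stood at 18.1, 9.60 and 15.2 CPM and was 1.59-fold higher (1.29 to 1.95). Idi1, an isomerase of the synthesis pathway, had 166, 56 and 104 counts and was 1.55-fold higher (1.11 to 2.18). Of 25 genes of apoptosis and p53, Casp8, the initiator of death receptor signalling, was higher (1.81-fold, 1.14 to 2.95) and Bad, a BCL2 antagonist, lower (1.54-fold, 1.38 to 1.71, lost after correction). No gene was called among 34 of heat shock and endoplasmic reticulum stress, 29 of glycolysis and hypoxia, 20 of the circadian clock and 23 of matrix proteases and their inhibitors. After correction Adm, Ankrd37 (ratio before it 1.31, 0.903 to 1.91) and the protease Adamts4 (1.47, 1.23 to 1.76) were called higher in the glycolysis and hypoxia and the protease lists. In the Wnt pathway 2 of 44 were higher, the receptor Ror1 (2.91-fold, 1.29 to 7.40, on 8 counts in vehicle) and the transcription factor Lef1 (1.54-fold, 1.12 to 2.12, lost after correction). Sfrp2, a secreted Wnt inhibitor, with 32, 20 and 40 counts and a ratio before it of 1.67 (0.951 to 3.01), was called higher after correction only.

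Several of the highest genes have near-identical copies elsewhere in the genome, so that a read may be given to one copy or another. Of compared genes with a known transcript, 6.91% had under 80% of their 50-base windows unique to them, against 8.88% of higher and 15.8% of lower genes. Srp54b, a copy of the signal recognition particle subunit, had 37, 13 and 217 counts and was 13.9-fold higher (7.96 to 26.5), with 0.222% of its windows unique. The 3 Srp54 copies summed to 22.9, 15.98 and 33.1 CPM, which was 2.07-fold higher in AGNHW (1.78 to 2.42). Eif3j2 was 4.09-fold higher (2.18 to 8.37), while the sum of both Eif3j copies gave a ratio of 1.11 (0.968 to 1.28). The sums were therefore nearer to 1 than Srp54b or Eif3j2 alone, but the Srp54 sum itself stayed past the limit of 1.5. The other copies Srp54a and Srp54c had ratios of 2.02 (1.41 to 2.92) and 1.26 (1.04 to 1.52).

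The chemokine Ccl21b, which guides T cells, had 0, 0 and 148 counts and was at least 41.1-fold higher against the floor of 3 counts. None of its windows is unique, and it passed the filter of 1 CPM only through AGNHW, so its higher call follows from that filter. With Ccl21a the sum was 6, 6 and 165 counts, a ratio of 22.9 (10.3 to 63.3). Ccl21b supplied 148 of these 165 counts, so the sum largely repeats its value and cannot show how reads were assigned. Dynlt1b, a dynein light chain, had 143, 222 and 57 counts and was 4.68-fold lower (3.48 to 6.37), and over 5 Dynlt1 copies the sum was 1.92-fold lower (1.67 to 2.21). Tmem254a, with 33.4% of its windows unique, had 275, 261 and 838 counts and was 2.67-fold higher (2.32 to 3.08). For the Tmem181 copies the sum was 1.51-fold lower (1.41 to 1.61), carried by Tmem181b-ps. These families were chosen after their values were seen.

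**Figure D5:**
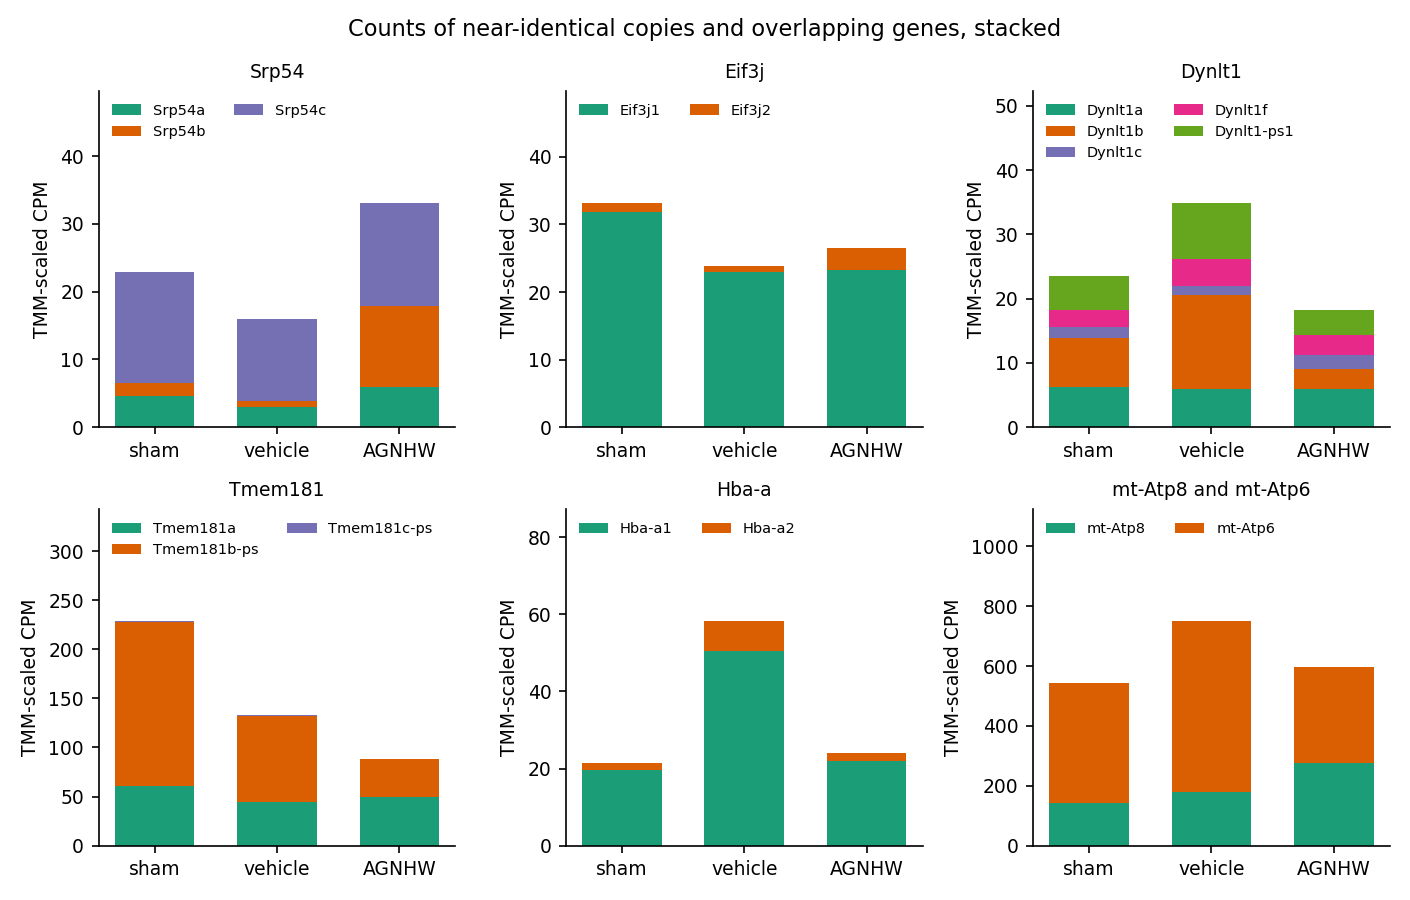
Stacked TMM-scaled CPM (vertical axis from 0) of near-identical gene copies, and of the overlapping mt-Atp8 and mt-Atp6, in the sham, vehicle and AGNHW libraries, 1 colour a gene. For Eif3j the stacks of vehicle and AGNHW are alike in height (23.8 and 26.4 CPM), whereas for Srp54 the AGNHW stack (33.1) is over that of vehicle (15.98).

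Mitochondrially encoded genes, which make core subunits of the respiratory chain, were called in 3 of 13 cases. The complex I gene mt-Nd3 stood at 21.3, 10.7 and 40.3 CPM and was 3.78-fold higher (3.19 to 4.51), and 2.01% of its windows are unique among annotated transcripts. The overlapping mt-Atp8 and mt-Atp6 moved apart, 1.53-fold higher (1.46 to 1.61) and 1.77-fold lower (1.71 to 1.83), while their sum had a ratio of 0.798 (0.777 to 0.819). The larger genes mt-Co1 and mt-Cytb had ratios of 1.08 (1.08 to 1.09) and 0.917 (0.911 to 0.924).

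Higher genes with mostly unique sequence included Adamts3, a protease that activates Vegfc, with 68, 20 and 97 counts and 4.04-fold higher (2.48 to 6.90). Cyp1b1, a cytochrome P450 induced by aryl hydrocarbons, had 63, 38 and 114 counts and was 2.5-fold higher (1.72 to 3.71). Slc9a7, a sodium-proton exchanger of the Golgi, had 122, 18 and 64 counts and was 2.96-fold higher (1.73 to 5.31). Tmem267, a membrane protein, had 78, 57 and 173 counts and was 2.53-fold higher (1.86 to 3.47). AGNHW exceeded both other libraries for Adamts3, Cyp1b1 and Tmem267, whereas Slc9a7 was highest in sham. Tm6sf2, Zfp882, Zmym1 and Col6a4 completed the highest genes, at ratios of 3.10, 3.02, 2.72 and 2.79, and for Tm6sf2, Zmym1 and Col6a4 sham was again the highest library.

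Genes of the sex chromosomes and of strain background can differ between mice apart from any treatment. Of 4 Y-linked genes 2 were higher. Eif2s3y stood at 29.0, 16.04 and 30.3 CPM and was 1.89-fold higher (1.62 to 2.21), and Uty 1.99-fold (1.29 to 3.13). All 3 libraries thus held Y-linked transcripts, and the list summed to 80.5 CPM in sham, 46.3 in vehicle and 73.0 in AGNHW. Of the 4 measured genes in the list of those known to differ between C57BL/6 colonies 2 were lower. Wdfy1, an endosomal protein, stood at 37.8, 26.04 and 13.6 CPM and was 1.92-fold lower (1.63 to 2.26). The complement inhibitor Cd59a had 281, 281 and 165 counts and was 2.04-fold lower (1.68 to 2.49). Below the limit of 1 CPM, Crb1 of the same list went the other way. It had 12, 9 and 30 counts and a ratio of 2.78 (1.28 to 6.65). Gabra2, which is outside this list, had the same order of libraries as Wdfy1, at 72.8, 48.3 and 18.9 CPM. The part of colony in the Gabra2 level was not tested. The labels give the strain as C57BL/6 with no colony, and differences between mice of the groups other than treatment cannot be told apart from treatment with 1 library each.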

How the data were processed

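Total RNA was taken from brain with TRIzol, per the labels' protocols. The authors deposited whole-number read counts for 17992 gene symbols in each of 3 libraries, with no normalisation. Bowtie2 2.2.3, TopHat2 2.0.12, HTSeq 0.6.0 and the mouse build mm9 are named in the submitters' processing notes. The sources used here give no strand or multi-mapping setting, so reads of overlapping, antisense and copied genes cannot be told apart. Every gene summed to at least 21 counts across the libraries, so rarer genes are not in the counts used here.

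Counts were scaled with TMM factors of edgeR 4.0.16 in R 4.3.3 (1.03 in sham, 0.968 in vehicle and 1.00 in AGNHW). Ratios have 95% exact conditional binomial intervals, computed in Python 3.11.15 with scipy 1.17.1, numpy 2.4.6 and pandas 2.3.3. Intervals and floors (3 counts per library) cover counting error only, and PCR copies were not marked by molecular identifiers. The size rule needed a ratio of 1.5 either way, a mean of 1 CPM over the 3 libraries, which left 15558 genes, and an interval that excluded 1. Log2 ratios used a prior count of 5. The rule was checked on simulated counts. No p-value was computed.

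Members and lists were chosen with earlier results of these data known. There were 50 lists with 1257 distinct symbols, of which 1118 were measured. Members called were 58 higher and 47 lower, so most calls (566 and 351) lay outside the lists. Named genes were the 15 called genes at each end of the log2 ratio with 50 counts in the higher library and no predicted name, the 4 members furthest from 0 in every list, and 20 standing markers (Gh, Prl, Pomc, Ttr, Alas2, Egr1, Arc, Lcn2, Fkbp5, Aif1, Gfap, Bdnf, Cldn5, Pecam1, Kdr, Vegfa, Mki67, Sox2, Nes and Dcx). Others were chosen after their values were seen, among them the remaining called members of the lists and those given to show members that were not called, as were gene copies, gene families, promoters and motifs.

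Transcript lengths, GC content and unique 50-base windows came from the longest GENCODE vM21 transcript of each symbol, on the same strand. The length and GC trend was a natural cubic spline with 5 degrees of freedom for each (patsy 1.0.2). Promoters came from RefSeq (GRCm38.p6), where 6 of 11 genes looked up had an entry. Alternatives were plain CPM, DESeq2 1.42.0 size factors, TMM over 2 libraries, the trend correction, other filters, fold limits, intervals and prior counts. Figures were drawn with matplotlib 3.10.9. Some genes counted in the lists are not reported here by name.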

Additional observations from a re-analysis of the deposited data

How the results depend on the processing

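The count of higher genes was 624 and became 137 at a mean of at least 10 CPM and 175 at a limit of 2-fold. The count of lower genes was 398 and became 73 and 116 under the same settings and 230 after the length and GC correction. A stricter filter or limit leaves fewer genes by construction. Higher genes made up 61.1% of calls, and 72.3% with plain CPM, which moved the median log2 ratio of all genes by 0.05. DESeq2 size factors, TMM over the vehicle and AGNHW libraries alone, a 99% interval, no filter and a filter over these libraries kept each of these counts within 1.5 times. Of 105 named genes called, 105 stayed called with DESeq2 size factors, 101 with plain CPM and 81 after the length and GC correction. No named gene that was called changed direction under plain CPM, DESeq2 size factors, TMM over 2 libraries or the correction, while the hypothalamic median changed sign with the correction. No paired analysis was possible because each group has 1 library and no test was made. No library could be left out, since each side has 1.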

Other observations

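The lists not described above held few calls. Tmem100, an endothelial and lung gene also placed among oligodendrocyte precursor markers, stood at 9.25, 4.87 and 7.88 CPM in sham, vehicle and AGNHW and was 1.62-fold higher in AGNHW (1.22 to 2.18), the 1 call among 20 such genes. Barhl2, listed as a cerebellar marker, had 31, 21 and 45 counts and was 1.78-fold higher (1.04 to 3.15), the 1 call among 15. The microfibrillar collagen gene Col6a3 was the 1 call among 24 collagens, at 1.54-fold higher (1.09 to 2.2), and did not pass after the length correction, when Col4a4 (27 counts in vehicle and 18 in AGNHW) was called lower. Ighm, the heavy chain of IgM, was 1.61-fold lower (1.28 to 2.04) among 4 measured leukocyte genes, and also did not pass after correction. Of 15 long noncoding RNAs the imprinted Airn was lower, with 20, 23 and 11 counts and 2.51-fold (1.18 to 5.7), whereas the nuclear RNA Malat1 had a ratio of 0.955 (0.929 to 0.981). None of 4 measured muscle genes was called.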
